A study of Mus with 4 samples.

Results

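The genes described here are 46 chromatin and DNA methylation regulators chosen by name for what they are known to do, and comprise histone deacetylases, Polycomb proteins, histone methyltransferases, demethylases and acetyltransferases, SWI/SNF and NuRD subunits, DNA methyltransferases, TET enzymes and 2 architectural proteins. Of these, 42 were matched through the transcript accession of at least 1 array probe, with 67 probes in all, among 16355 named genes and 41166 probes tested. *Arid1a*, *Tet1*, *Tet3* and *Ctcf* were not matched and were not analysed here. RNA came from GFP-positive cap mesenchyme cells sorted from mouse kidneys at embryonic day 15.5. *Mut* cells were *Six2* CreEGFP+; PRR flox/flox, that is, they lacked the prorenin receptor (PRR, gene *Atp6ap2*) wherever the *Six2*-driven Cre had acted, and *WT* cells were *Six2* CreEGFP+; PRR+/+ from littermates, so both genotypes carried the Cre-GFP transgene. Each sample was a pool of kidneys. *Mut* pools 1, 2 and 3 (Cy3, green) were each hybridized with *WT* pools 1, 2 and 3 (Cy5, red), respectively, on arrays 1, 2 and 3, and array 4 held *WT* pool 2 (Cy3) against *WT* pool 1 (Cy5). The dyes were never exchanged on arrays 1 to 3, so genotype and dye cannot be told apart there, and array 4 shows what the same dyes gave without a difference of genotype.

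Chromatin regulators set how tightly DNA is packed and which genes can be read. Histone deacetylases remove the acetyl marks that acetyltransferases such as p300 and CBP add, Polycomb complexes place repressive marks on developmental genes, and the NuRD complex joins a remodelling ATPase to deacetylases. DNA methyltransferases add methyl groups to cytosine, and TET enzymes oxidize them. In the developing kidney, deacetylases and Polycomb proteins are known to act in nephron progenitors, where they influence the balance between self-renewal and differentiation.

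The arrays shared 1 slide. On arrays 1 to 3 the *Mut* channel (Cy3) was well above background at 45.1% to 49.5% of the probes and the *WT* channel (Cy5) at 54.1% to 58.3%. On array 4, with *WT* RNA in both channels, the shares were 51.1% in Cy3 and 57.4% in Cy5. A lower share in Cy3 was thus also seen without a difference of genotype, which limits every detection count below. With 3 arrays of *Mut* against *WT*, precision is limited by their number. A value is a normalized log2 *Mut*/*WT* ratio unless stated otherwise. A gene is given by its probe with the highest mean signal, called here its brightest probe. *Atp6ap2*, held by 1 probe, was at -0.08, -0.19 and -0.25 on arrays 1, 2 and 3 and at -0.19 on array 4. Its mean over arrays 1 to 3, -0.17 (SE 0.0547), passed the adjusted *P* in limma (0.0351). Whether its probe lies in the deleted part of the transcript was not determined. With a dye term for the probe from array 4 *Atp6ap2* was at 0.02. Here and below, the dye term rests on 1 array and also holds any difference between *WT* pools 2 and 1. The spread in that fit comes from arrays 1 to 3 only, and its SE is larger than without the term, so a call can be lost through the SE as well. Of 10 nephron progenitor markers 9 were well above background in both channels on all 3 arrays, 1 passed the adjusted *P* as higher (*Eya1*, 0.31) and 5 as lower, *Meox1* (-0.49), *Osr1* (-0.35) and *Six2* (-0.18) among them. Of 10 markers of differentiating nephrons 6 passed it as higher and 1 as lower, *Lhx1* (0.69) and *Ccnd1* (0.68) with more than 1.5-fold, and the summed level of the list was 11.71 to 11.78 in *Mut* and 11.33 to 11.40 in *WT*. On array 4 *WT* pools 2 and 1 were at 9.019 and 9.001 for *Lhx1* (*Mut* mean 8.887, *WT* mean 8.198 on arrays 1 to 3) and at 10.28 and 10.26 for *Ccnd1* (10.28 and 9.603). Over all genes 33.0% passed the adjusted *P* (14.4% higher and 18.6% lower) and 2.02% also 1.5-fold, shares that apply to each marker list here. Of 9 erythroid markers measured 2 passed both thresholds as higher in *Mut*, the globins *Hba-a1* (1.17) and *Hbb-bt* (1.26), and the summed level of the list was 13.2 to 13.3 in *Mut* and 12.1 to 12.2 in *WT* on the log2 scale. On array 4, however, *WT* pools 2 and 1 were at 11.6 and 11.8 for *Hba-a1* and at 12.5 and 12.3 for *Hbb-bt*, near the *Mut* means of 11.6 and 12.6 and above the *WT* means of 10.4 and 11.3 on arrays 1 to 3. *Gata1*, *Hbb-bh1* and *Hba-x* of this list did not rise well above background in *Mut* or *WT*. Of 8 stroma markers 3 passed both thresholds as higher, *Col1a1* (0.89), *Col3a1* (0.78) and *Pdgfrb* (0.60), with a summed level of 12.9 to 13.2 in *Mut* and 12.6 to 12.7 in *WT*, while *Foxd1* was at -0.30. On array 4 *WT* pools 2 and 1 were at 10.68 and 10.26 for *Col1a1* (*Mut* mean 10.85, *WT* mean 9.97 on arrays 1 to 3). They were at 10.96 and 10.69 for *Col3a1* (11.24 and 10.46) and at 8.42 and 8.25 for *Pdgfrb* (8.57 and 7.96). With the dye term the 3 genes were at 0.46, 0.51 and 0.43. The part of all these markers in the values below was not tested, and in sorted pools more cells of a type and more RNA per cell cannot be told apart.

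Most chromatin regulators differed little between *Mut* and *WT*. At their brightest probe 26 of the 42 genes were higher and 16 lower in *Mut*, with a median of 0.08 against 0.00 over all 16355 genes (-0.0031 before rounding), and 39 of the 42 differed by less than 1.5-fold. A gene was called at a Benjamini-Hochberg adjusted *P* under 0.05 (limma, over all probes) together with a fold change over 1.5. Over all 67 probes of the list 1 was called higher and 5 lower, against 2.01% of all probes (0.551% higher and 1.46% lower), and 18 passed the adjusted *P* as higher and 20 as lower, against 29.6% (13.2% and 16.4%). Called genes were *Chd4*, the ATPase of NuRD, as higher, and *Mbd3*, another NuRD subunit, and *Sirt1*, a NAD-dependent deacetylase, as lower. That is 3 of 42 (7.14%), 1 higher and 2 lower, against 2.02% of all genes in either direction (0.434% higher and 1.59% lower), and against 3.43% (0.759% and 2.67%) of the genes well above background in both channels throughout. Past the adjusted *P* alone were 16 genes as higher and 8 as lower, 57.1% of the list, against 33.0% of all genes, 14.4% higher and 18.6% lower. Nearly all of the list was detected. For the 39 members whose brightest probe was well above background in both channels on all 3 arrays, 23 passed the adjusted *P* (59.0%), 16 higher and 7 lower, against 46.4% (20.6% and 25.8%) of the 9351 genes detected in this way. These counts depended on the setting. No member was called or passed the adjusted *P* with normexp without its offset, with median centring or with a dye term for each probe taken from array 4, settings where at most 0.785% of all probes were called, and with the deposited log ratios 1 was called (as lower), with 3 past the adjusted *P* as higher and 4 as lower. Without array 2 the 16 genes past it as higher became 8. Over 13 alternative settings the call was kept in 8 for *Chd4*, 7 for *Mbd3* and 9 for *Sirt1*. The setting without the fold minimum, 1 of the 13, could lose no call. Not among the 13 is the median over the probes of each gene, where 0 members were called higher and 1 lower. The levels of the 3 *Mut* and the 3 *WT* pools did not overlap for 25 of the 42 genes, 15 higher and 10 lower, against 40.8% of all genes (51.3% of those detected). These directions rested on the loess normalization. When the arrays were centred on their medians, 4 of the 42 were higher and 38 lower, with a median of -0.44 where that of all genes moved to -0.19. The -0.19 includes 7835 genes with a mean log2 signal under 7, where only 5 of the regulators lay, so the 2 medians differ in brightness. With the dye term there were 21 higher and 21 lower, with a median of 0.0025.

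**Figure D1:**
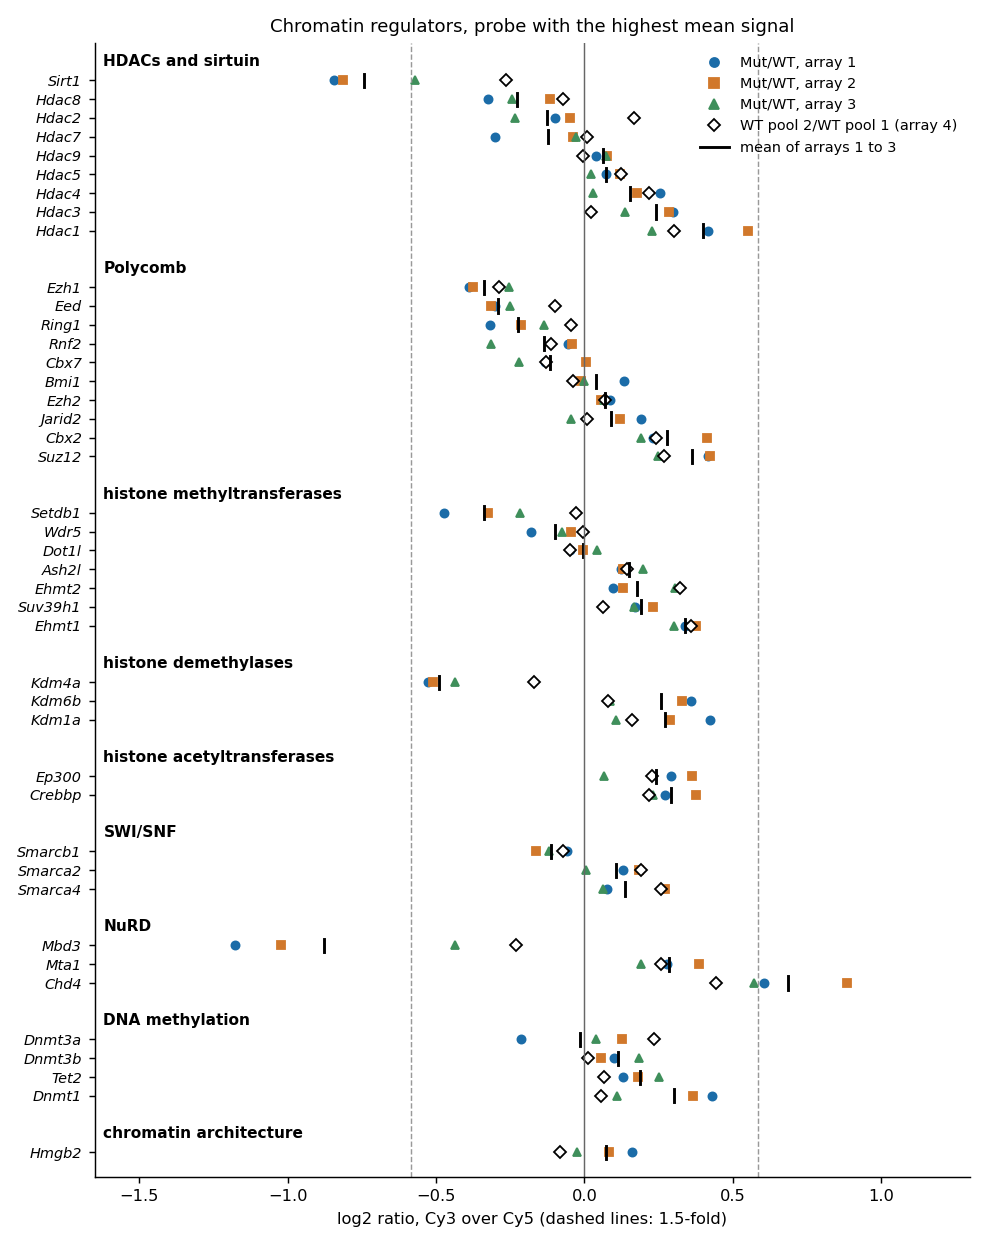
Log2 ratio of Cy3 over Cy5 for the brightest probe of the 42 matched genes, by role, under loess normalization. Filled symbols are *Mut*/*WT* on arrays 1 to 3, black bars their mean, open diamonds *WT* pool 2 over *WT* pool 1 on array 4 and dashed lines 1.5-fold. *Chd4*, *Mbd3* and *Sirt1* lie beyond the dashed lines. Under median centring 38 of the 42 means would lie below 0.

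The change of reference is seen when the ratios are set against brightness. Under median centring the median ratio of all genes was 0.12 for genes with a mean log2 signal under 7 and -0.35, -0.53, -0.59, -0.62 and -0.65 in successively brighter bins, while under loess it stayed between -0.04 and 0.02. Only 5 of the 42 regulators lay under a signal of 7. In each brighter bin the median of the regulators was below 0 under median centring as well, between -0.50 and -0.27. It was nevertheless above that of all genes in the same bin, at -0.44 against -0.65 for signals over 11. Under 7 it was below, at -0.03 against 0.12. Genes other than *Hdac9*, *Tet2*, *Crebbp* and *Chd4* that were higher under loess were lower under median centring.

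**Figure D2:**
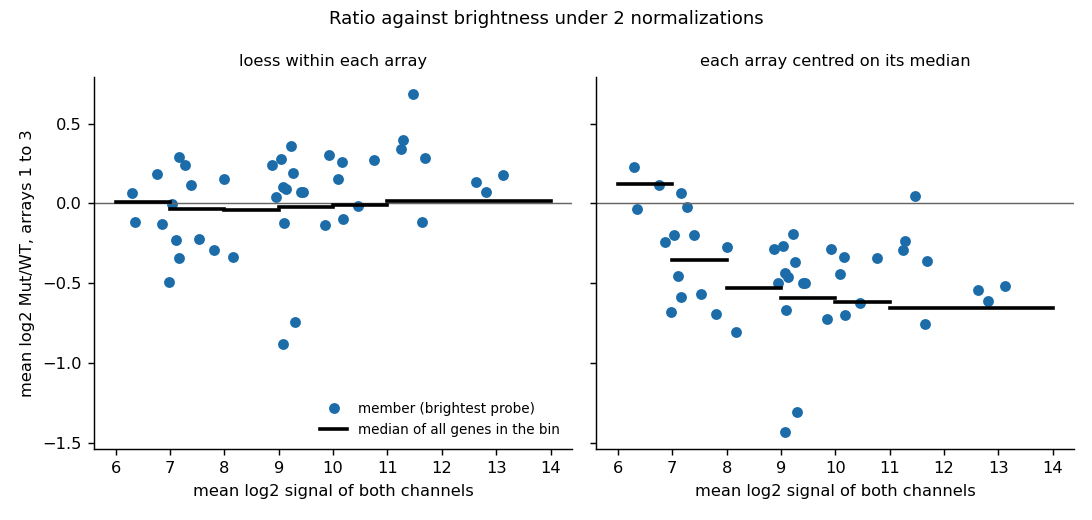
Mean log2 *Mut*/*WT* of arrays 1 to 3 against the mean log2 signal of both channels, for the brightest probe of each regulator (points), with the median of all genes in each brightness bin (black lines, bins drawn from 6 to 14). On the left, after loess within each array, the lines lie near 0. On the right, after centring each array on its median, they fall to -0.65 for the brightest genes, and 38 of the 42 points lie below 0.

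NuRD held the gene called as higher and 1 of the 2 called as lower. That is 66.7% of its 3 genes here, against 2.02% of all genes and 3.43% of those detected. Of 5 further NuRD genes outside the members none was called (0 by limma, 0 also at an unadjusted *P* under 0.05 with 1.5-fold). *Mbd3*, a structural subunit of NuRD with a methyl-CpG-binding domain, is held by 1 probe. Its normalized log2 signal was 9.62, 9.48 and 9.58 in *WT* pools 1, 2 and 3 and 8.45, 8.46 and 9.14 in *Mut* pools 1, 2 and 3. All *Mut* pools lay below all *WT* pools, and *Mut* pool 3 lay nearer to *WT* than the others. The log2 *Mut*/*WT* was -1.18, -1.02 and -0.44, a mean of -0.88 (SE 0.107, n = 3 arrays, adjusted *P* = 0.000124), which is 1.84-fold lower in *Mut*. On array 4 the probe was at -0.23, with a level of 9.62 in *WT* pool 1 and 9.39 in *WT* pool 2. Against *WT* pool 2, which carries the same dye as *Mut*, the mean of the *Mut* pools was at -0.71. With the dye term *Mbd3* was at -0.65, still beyond 1.5-fold, but with an SE of 0.214 it was not called (limma adjusted *P* = 0.19). Without array 3 it was at -1.10. The brightest probe of *Mta1*, which encodes a scaffold subunit of NuRD, was at 0.28, 0.39 and 0.19, a mean of 0.29 (SE 0.0559, adjusted *P* = 0.00263), against 0.26 on array 4, and at 0.03 with the dye term. With median centring it was at -0.36.

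*Chd4* is held by 3 probes, which went opposite ways. At the brightest probe the level was 11.2, 11.2 and 11.1 in *WT* pools 1, 2 and 3 and 11.8, 12.1 and 11.7 in *Mut* pools 1, 2 and 3, with no overlap. The ratios were 0.60, 0.88 and 0.57, a mean of 0.69 (SE 0.0653, adjusted *P* = 2.63e-05), 1.61-fold higher in *Mut*. The dimmest of the 3 probes was at -1.04, -0.83 and -0.46, a mean of -0.78 (SE 0.0879, adjusted *P* = 7.7e-05), 1.71-fold lower. Its level was 8.66, 8.17 and 8.28 in *WT* and 7.61, 7.34 and 7.82 in *Mut*, also with no overlap. The remaining probe was at -0.64, -0.34 and -0.12, a mean of -0.37 (SE 0.0809, adjusted *P* = 0.00534), under 1.5-fold. All 3 probes carry the same transcript accession and were well above background in both channels on every array. On array 4 they were at 0.44, 0.08 and 0.18, from the brightest over the dimmest to the remaining probe. With the dye term, which rests on array 4 alone, the brightest probe was at 0.24 and no longer called, while the dimmest was at -0.85 (SE 0.176) and still called. Against *WT* pool 2 in Cy3, however, the *Mut* mean was at 0.14 for the brightest and at -0.29 for the dimmest probe, and at the dimmest *WT* pool 1 lay at 7.80 on array 4 where the *WT* mean of arrays 1 to 3 was 8.37. With median centring the brightest probe was at 0.05. The direction of *Chd4* therefore depended on the probe, and among 5303 genes with several probes it was the 1 gene (0.0189%) with calls in both directions.

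**Figure D3:**
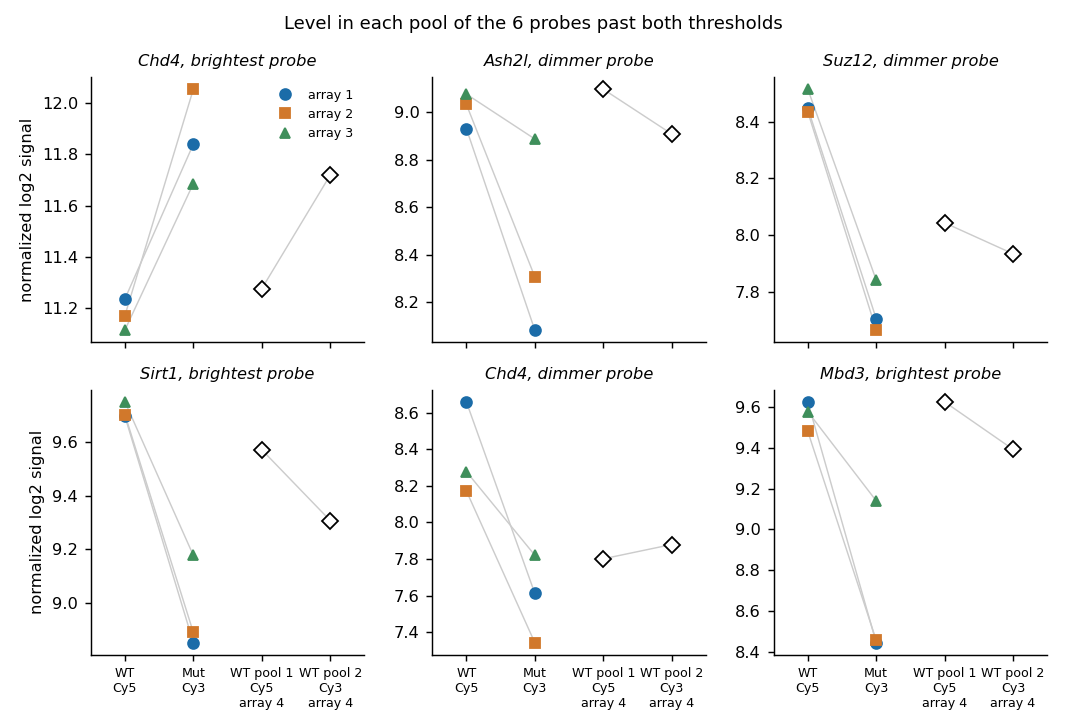
Normalized log2 signal in each pool for the 6 probes called under loess normalization, each on its own vertical scale. Symbols joined by a line share an array, filled symbols are arrays 1 to 3 and open diamonds both *WT* pools of array 4. *Mut* and *WT* of arrays 1 to 3 do not overlap at any of the 6 probes, and at *Sirt1* and the dimmer probes of *Suz12* and *Chd4* both *WT* pools of array 4 lie below all *WT* pools of arrays 1 to 3. Under median centring none of the 6 was called, with log2 ratios of -1.43 (*Mbd3*), -1.30 (*Sirt1*), -1.22 and 0.05 (dimmest and brightest *Chd4* probes), -1.18 (*Suz12*) and -1.11 (*Ash2l*).

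Among deacetylases, 2 genes (*Hdac1* and *Hdac3*) passed the adjusted *P* as higher and 2 (*Hdac8* and *Sirt1*) as lower, while 5 of the 9 did not pass. The 4 that passed are 44.4% of the group, near the 46.4% of all detected genes, and like every count by role below they are to be read against that share and the 33.0% of all genes. With median centring *Hdac1* was at -0.23 and *Hdac3* at -0.29. At its brightest probe *Sirt1* had a level of 9.70, 9.70 and 9.75 in *WT* pools 1, 2 and 3 and of 8.85, 8.89 and 9.18 in *Mut* pools 1, 2 and 3. Every *Mut* pool was below every *WT* pool. The ratios were -0.84, -0.81 and -0.57, a mean of -0.74 (SE 0.0619, adjusted *P* = 1.06e-05), 1.67-fold lower, against -0.26 on array 4. Against *WT* pool 2 in Cy3 the mean of the *Mut* pools was at -0.33, and with the dye term *Sirt1* was at -0.48 and not called. The dimmer probe of *Sirt1* went the other way, at 0.36, 0.21 and 0.12, a mean of 0.23 (SE 0.0587, adjusted *P* = 0.0121), against 0.21 on array 4. The dye term brought it to 0.02 and median centring to -0.21.

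*Hdac1*, a class I deacetylase found in NuRD and other corepressors, was at 0.42, 0.55 and 0.23, a mean of 0.40 (SE 0.0639, adjusted *P* = 0.000742). It was at 0.30 on array 4 and at 0.09 with the dye term. *Hdac2*, its close relative, was at -0.10, -0.05 and -0.23 and did not pass (adjusted *P* = 0.108), although its pools did not overlap. *Hdac3*, the enzyme of the NCoR and SMRT corepressors, was at 0.30, 0.29 and 0.14 (adjusted *P* = 0.0066), with 0.02 on array 4 and 0.22 with the dye term. *Hdac8* was at -0.32, -0.12 and -0.25 (adjusted *P* = 0.0102), with -0.07 on array 4, and at its other probe no array had the *Mut* channel well above background, which leaves a bound of at least 1.12-fold lower in *Mut* in these normalized values. Of the class IIa enzymes, *Hdac4*, *Hdac5* and *Hdac7* had means of 0.15, 0.07 and -0.12 and did not pass. The dimmer probe of *Hdac7* was at -0.56, -0.52 and -0.27, a mean of -0.45 (adjusted *P* = 0.000312), with -0.01 on array 4 and -0.45 with the dye term. Neither probe of *Hdac9* was well above background in *Mut* or *WT*.

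In the Polycomb group, *Suz12* and *Cbx2* passed the adjusted *P* as higher and *Ezh1*, *Eed* and *Ring1* as lower at their brightest probe, 5 of the 10 did not pass, and none was called (0 by limma, 0 also at an unadjusted *P* under 0.05 with 1.5-fold). With median centring *Suz12* was at -0.19 and *Cbx2* at -0.27. *Suz12*, *Eed* and the methyltransferases *Ezh1* and *Ezh2* belong to Polycomb repressive complex PRC2, which places a repressive methyl mark on histone H3. *Suz12* was at 0.42, 0.42 and 0.25 at its brightest probe, a mean of 0.36 (SE 0.0558, adjusted *P* = 0.000576), against 0.27 on array 4. Its dimmer probe was called as lower, at -0.74, -0.77 and -0.67, a mean of -0.73 (SE 0.0519, adjusted *P* = 3.9e-06), 1.66-fold. There the level was 8.45, 8.43 and 8.51 in *WT* pools 1, 2 and 3 and 7.71, 7.67 and 7.84 in *Mut*, with the tightest spread of the called probes. It stayed called with the dye term, at -0.62 (SE 0.104), a term that rests on array 4 alone. On array 4, however, *WT* pool 1 was at 8.04 and *WT* pool 2 at 7.93, both nearer to the *Mut* mean of 7.74 than to the *WT* mean of 8.47, although *WT* pool 1 had been at 8.45 on array 1.

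The other PRC2 genes differed little. *Ezh1* was at -0.39, -0.37 and -0.25, a mean of -0.34 (SE 0.0536, adjusted *P* = 0.000664), but it was at -0.29 on array 4 and at -0.05 with the dye term. *Ezh2*, the form that dominates in dividing cells, was at 0.09, 0.06 and 0.07 with 0.07 on array 4, and did not pass (adjusted *P* = 0.333). *Eed* was at -0.30, -0.32 and -0.25, a mean of -0.29 (adjusted *P* = 0.00137), with -0.10 on array 4 and -0.19 with the dye term. *Jarid2*, a cofactor of PRC2, had a mean of 0.09 at its brightest and 0.06 at its other probe and did not pass. In PRC1, which ubiquitinates histone H2A, *Ring1* was at -0.32, -0.21 and -0.14 (adjusted *P* = 0.0104), while its other probe was at 0.08 and did not pass. *Rnf2* had a mean of -0.14 and *Bmi1* of 0.04 at their brightest probes, and neither passed, but the dimmer probe of *Bmi1* was at -0.48, -0.28 and -0.45, a mean of -0.40 (adjusted *P* = 0.000306), against -0.25 on array 4. *Cbx2* was at 0.23, 0.41 and 0.19 (adjusted *P* = 0.0039) against 0.24 on array 4, and at 0.04 with the dye term. *Cbx7* was well above background on no array in *Mut* and on 1 in *WT*, with a mean of -0.12 (adjusted *P* = 0.154).

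Of the 7 genes of histone methyltransferases and their cofactors, *Ehmt1*, *Ehmt2*, *Suv39h1* and *Ash2l* passed the adjusted *P* as higher and *Setdb1* as lower. The 4 higher ones all lay below 0 with median centring, between -0.52 and -0.29. *Ehmt1* and *Ehmt2* encode GLP and G9a, which methylate histone H3 as a pair. *Ehmt1* was at 0.34, 0.38 and 0.30, a mean of 0.34 (SE 0.0514, adjusted *P* = 0.000513), and at 0.36 on array 4, where both channels held *WT* RNA. *Ehmt2* was at 0.10, 0.13 and 0.30 (adjusted *P* = 0.0374) and at 0.32 on array 4. With the dye term they were at -0.02 and -0.14. *Suv39h1*, a heterochromatin enzyme, was at 0.17, 0.23 and 0.17 (adjusted *P* = 0.0161), with 0.06 on array 4. *Setdb1*, which silences retroelements, was at -0.47, -0.33 and -0.22, a mean of -0.34 (adjusted *P* = 0.0013), with -0.03 on array 4 and -0.31 with the dye term. Its *Mut* and *WT* pools did not overlap. *Dot1l*, which methylates the core of histone H3, had ratios of -0.05 and 0.04 on arrays 1 and 3 and an adjusted *P* of 0.97.

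*Ash2l* and *Wdr5* encode core subunits shared by the complexes that place the methyl mark of active promoters on histone H3. At its brightest probe *Ash2l* was at 0.12, 0.13 and 0.20, a mean of 0.15 (SE 0.0515, adjusted *P* = 0.046), against 0.14 on array 4. Its dimmer probe was called as lower, at -0.85, -0.73 and -0.19, a mean of -0.59 (SE 0.0986, adjusted *P* = 0.000977), 1.5-fold. The level there was 8.93, 9.03 and 9.08 in *WT* and 8.08, 8.31 and 8.89 in *Mut* pools 1, 2 and 3, so *Mut* pool 3 lay close to *WT*. The call did not hold when array 1 (-0.46) or array 2 (-0.52) was left out, nor under the dye term (-0.40). *Wdr5* had a mean of -0.10 at its brightest probe and did not pass, and its dimmer probe was at -0.38, -0.42 and -0.18, a mean of -0.33 (adjusted *P* = 0.00167), with -0.13 on array 4.

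The 3 histone demethylases all passed the adjusted *P* (33.0% of all genes and 46.4% of those detected did), 2 as higher and 1 as lower, and the 2 higher ones turned with median centring. *Kdm4a*, a Jumonji demethylase of histone H3, was at -0.53, -0.51 and -0.44, a mean of -0.49 (SE 0.0518, adjusted *P* = 4.92e-05). This was the largest ratio short of a call among the 42 genes at their brightest probe. Its *Mut* channel was well above background on 2 of 3 arrays. It was at -0.17 on array 4 and at -0.32 with the dye term. *Kdm1a* (LSD1), a flavin-dependent demethylase, was at 0.42, 0.29 and 0.11, a mean of 0.27 (adjusted *P* = 0.00718), with 0.16 on array 4 and -0.34 with median centring. *Kdm6b*, which removes the mark of PRC2, was at 0.36, 0.33 and 0.09, a mean of 0.26 (adjusted *P* = 0.00865), with 0.08 on array 4 and -0.34 with median centring.

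The acetyltransferases *Ep300* (p300) and *Crebbp* (CBP) were both higher past the adjusted *P* at their brightest probe, although with median centring they were at -0.02 and 0.06. *Crebbp* was at 0.27, 0.38 and 0.23, a mean of 0.29 (SE 0.0536, adjusted *P* = 0.00171), and its pools did not overlap. *Ep300* was at 0.29, 0.36 and 0.07, a mean of 0.24 (adjusted *P* = 0.0138), and its pools overlapped. On array 4 they were at 0.22 and 0.23, and with the dye term at 0.08 and 0.01. No array had the other *Ep300* probe well above background in *Mut*.

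None of the 3 SWI/SNF genes passed the adjusted *P* at its brightest probe (0 by limma, 1 at an unadjusted *P* under 0.05). *Smarca4* (BRG1) and *Smarca2* (BRM), the alternative ATPases of this remodelling complex, had means of 0.14 and 0.11, and *Smarcb1*, a core subunit, of -0.11. *Smarca4* was at 0.08, 0.27 and 0.06 (adjusted *P* = 0.0976) and at 0.26 on array 4. Its other probes were at -0.30, -0.26 and -0.22 with a mean of -0.26 (adjusted *P* = 0.00285) and at -0.36, -0.10 and -0.09 with a mean of -0.19 (adjusted *P* = 0.043). On array 4 these were at -0.21 and 0.18.

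For the DNA methylation genes, *Dnmt1* and *Tet2* passed the adjusted *P* as higher at their brightest probe, and *Dnmt3a* and *Dnmt3b* did not pass. *Dnmt1*, the maintenance methyltransferase that copies methylation after replication, was at 0.43, 0.37 and 0.11, a mean of 0.30 (SE 0.065, adjusted *P* = 0.00475). It was at 0.06 on array 4, 0.25 with the dye term and -0.29 with median centring. Of the de novo enzymes, *Dnmt3a* was at -0.21, 0.13 and 0.04 at its brightest probe, an SD between arrays of 0.18, and *Dnmt3b* at 0.10, 0.06 and 0.18 (adjusted *P* = 0.133). The other probes of *Dnmt3a* had means of 0.05 and -0.19, the latter past the adjusted *P* (0.022). *Tet2* was at 0.13, 0.18 and 0.25, a mean of 0.19 (SE 0.0526, adjusted *P* = 0.0196), at its brightest probe, and at 0.12 with median centring. Its dimmer probe was at -0.39, -0.38 and -0.12, a mean of -0.30 (SE 0.0631, adjusted *P* = 0.00427), with the *Mut* channel well above background on 1 of 3 arrays. *Hmgb2*, an abundant DNA-bending protein of dividing cells and the last member, was at 0.16, 0.08 and -0.03 at its brightest probe (adjusted *P* = 0.358) and at 0.28, 0.23 and 0.28 at its other (adjusted *P* = 0.00241), where median centring gave -0.36.

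The probes of a gene often disagreed. Of the 20 regulators with several probes, 8 had all their probes on the same side of 0, against 2773 of 5303 among all genes with several probes, and the highest and lowest probe of a gene differed by a median of 0.26 log2 units, against 0.18 over the 5303. *Chd4*, *Suz12*, *Sirt1*, *Ash2l* and *Tet2* had probes past the adjusted *P* in opposite directions, which is 5 of 20 genes (25.0%) against 6.62% of the 5303. With probes limited to those well above background in both channels on every array it was 4 of 14 (28.6%) against 8.61% of 2638 genes, *Tet2* being the gene left out. The highest and lowest probe differed by 1.46 for *Chd4*, 1.09 for *Suz12*, 0.97 for *Sirt1*, 0.74 for *Ash2l* and 0.48 for *Tet2*, and on array 4 by 0.36, 0.38, 0.48, 0.33 and 0.25 for the same genes. Over all the regulators with several probes the differences on array 4 had a median of 0.20, against 0.15 over the 5303. In 14 of the 20 genes (70.0%) the brightest probe had the highest ratio, against 59.3% of the 5303, and of the 25 probes that were not the brightest 6 were higher and 19 lower in *Mut*. The choice of probe thus set the sign of the list's median, which was 0.08 at the brightest probes, -0.13 over the other 25, and -0.039 when the median over the probes of each gene was fitted. Apart from those of *Smarca2*, which carry different accessions, the probes of each of these genes share a transcript accession, and where each binds was not determined.

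**Figure D4:**
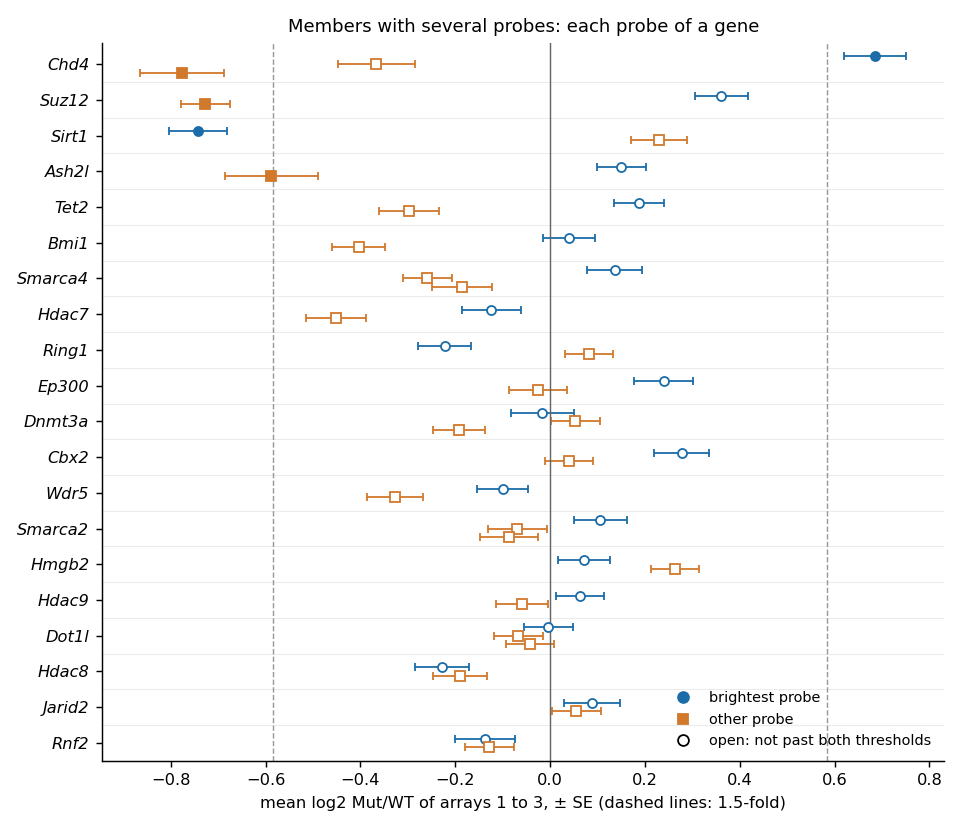
Mean log2 *Mut*/*WT* (± SE from limma, n = 3 arrays, loess normalization) of every probe of the 20 regulators with several probes, ordered by the difference between probes. Blue circles are brightest probes, orange squares the others, filled symbols are called and dashed lines mark 1.5-fold. Filled symbols of *Chd4* stand on both sides, at 0.69 and -0.78. With median centring all probes of *Chd4* but the brightest, at 0.05, lay below 0.

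On array 4 the brightest probes of the 42 genes had a median log2 Cy3/Cy5 of 0.06, with 26 above 0, between 2 *WT* pools, against 0.00073 and 8210 of 16355 over all genes. Set against the Cy3 level of *WT* pool 2, the mean of the *Mut* pools lay between -0.71 (*Mbd3*) and 0.35 (*Smarca2*), with a median of 0.04 (-0.00065 over all genes), and 1 of the 42 genes, *Mbd3*, differed by more than 1.5-fold, against 0.342% of all genes. It sets different arrays and a single *WT* pool side by side and was not tested.

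Other genes of the same pathways are given for comparison. A further list of 119 chromatin regulators had 97 matched genes, of which 28 passed the adjusted *P* as higher and 28 as lower (57.7%, against 57.1% of the 42, 33.0% of all genes and 46.4% of those detected), with a median of 0.01. Of the 97, 90 were well above background in both channels on all 3 arrays. None of them was called as higher (0 by limma, 0 also at an unadjusted *P* under 0.05 with 1.5-fold), and 2 were called as lower, which is 2.06% against 1.59% of all genes called as lower. These were *Prmt1*, an arginine methyltransferase, at -1.20, -1.10 and -0.57, a mean of -0.96 (SE 0.0961, adjusted *P* = 3.61e-05), and *Brd9*, a SWI/SNF subunit, at -1.03, -0.71 and -0.48, a mean of -0.74 (SE 0.0836, adjusted *P* = 7.7e-05). On array 4 they were at -0.48 and -0.33, and neither was called with the dye term, at -0.48 and -0.41. Since several regulators, *Dnmt1*, *Ezh2* and *Hmgb2* among them, are most active in dividing cells, 13 proliferation markers were set beside them. Of these 6 passed the adjusted *P* as higher and 2 as lower (61.5%, against 33.0% of all genes, 14.4% higher and 18.6% lower), with a median of 0.14, and none was called (0 by limma, 0 at an unadjusted *P* with 1.5-fold). All 13 were detected in both channels, and of the genes so detected 46.4% passed (20.6% higher and 25.8% lower). The summed level of the markers was 15.13 to 15.19 in *Mut* and 15.02 to 15.06 in *WT*, and their part in the values of the regulators was not tested.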

How the data were processed

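Each array was read from the Agilent Feature Extraction 10.7.3.1 output that the authors deposited. The deposited intensity values are linear, not normalized, and give each spot's median brightness and local background in Cy3 and Cy5. The log10 ratios of red to green that the authors deposited, after the program's background subtraction and dye normalization, served as an alternative, and the series table held the same values. GeneSpring values were not analysed here.

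Here, the background was corrected by normexp (offset 50) on all 45018 spots, ratios were normalized by loess within arrays with control spots at weight 0, flagged outlier spots (122 to 162 per array) were removed and spots of a probe averaged. Channel levels were Aquantile-normalized. Ratios of arrays 1 to 3 were tested against 0 with limma 3.58.1 in R 4.3.3, at the thresholds of the study's methods. The pools of an array deviated together from their group means (Pearson *r* over probes 0.388, 0.431 and 0.320), and the design is paired by array. In simulated data for this comparison with 41166 probes, 100 of 100 probes changed 1.75-fold and 100 of 100 changed 2.5-fold were recovered, with 0 false calls. The simulated noise was normal, independent and centred on 0, with no dye, pool or probe effect. The recovery holds for such noise only and gives no rate of false calls in the real data.

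Symbols came from a GRCm38.p6 table, used for names only, which matched 55.7% of 41174 probes. The members and the other lists were chosen with earlier results of these data known. All members are accounted for, with values per array for genes called at any probe and the largest uncalled ratio of each role. Other genes named are the called ones of the further lists and, chosen after their values were seen, some markers short of a call. A bound sets the mean of the brighter channel against the dim channel, taken at the probe's own signal or at the lowest signal well above background, whichever was higher, and is open to dye bias. Nothing in the labels says that pools came from separate litters, so *P* values measure the spread between these arrays.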

Additional observations from a re-analysis of the deposited data

How the results depend on the processing

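Calls were made mainly under loess with an offset of 50. Normexp without its offset and median centring gave 0 calls among all 41166 probes, those of the members and the other regulators included, and 0 members past the adjusted *P* either way (limma), although at an unadjusted *P* under 0.05 and 1.5-fold 1 member was higher and 3 lower without the offset and 0 higher and 12 lower with centring. The member median was 0.13 and -0.44. Other regulators called as lower went from 2 to 0 in both, with 5 and 33 as lower at an unadjusted *P* and 1.5-fold. With the deposited log ratios, which called 6.57% of all probes, 0 members were called higher and 1 lower, 0 probes higher and 3 lower (2 and 4 members and 2 and 11 probes at an unadjusted *P* with 1.5-fold, *Chd4* at 0.70 and *Mbd3* at -1.04), 3 genes passed the adjusted *P* as higher and 4 as lower, the median was 0.15, and 2 other regulators were called higher. With the dye term, which called 0.785% of all probes, 0 members were called either way, 0 probes higher and 2 lower, 0 genes passed the adjusted *P* (0 higher and 1 lower at an unadjusted *P* with 1.5-fold), the median was 0.0025 and 0 other regulators were called lower. The methods' *t*-test gave 1 member and 3 probes as lower unadjusted, and 0 members, probes and other regulators after Benjamini-Hochberg adjustment. Without the fold minimum 16 members were higher and 8 lower, 18 probes higher and 20 lower, and 28 other regulators each way. With each gene's median over its probes 0 members were called higher and 1 lower, 14 passed the adjusted *P* as lower and the median was -0.039, with 19 members higher and 23 lower. *Chd4* is then given by its middle probe, at -0.37, and so turned. Without the replicate block, that is, with unpaired channels, 10 members passed the adjusted *P* as higher, and no call changed.

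Leaving out 1 array at a time, members past the adjusted *P* as higher ranged from 8 (without array 2) to 15 and other regulators called from 0 to 1 higher and from 2 to 4 lower, the extremes without array 3.

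Directions turned as follows. With median centring *Ep300* was at -0.024, *Suz12* at -0.19, *Dnmt3b* at -0.20, the dimmer *Sirt1* probe at -0.21, *Hdac1* at -0.23, *Cbx2* at -0.27, *Hdac4* at -0.27, *Dnmt1* at -0.29, *Hdac3* at -0.29, *Ehmt1* at -0.29, *Kdm6b* at -0.34, *Kdm1a* at -0.34, *Mta1* at -0.36, *Suv39h1* at -0.37, *Smarca2* at -0.44, *Ash2l* at -0.45, *Jarid2* at -0.46, *Hdac5* at -0.50, *Bmi1* at -0.50, *Ezh2* at -0.50, *Ehmt2* at -0.52, *Smarca4* at -0.54 and *Hmgb2* at -0.61. With the dye term *Ezh2* was at -0.00084, *Ehmt1* at -0.020, *Hdac5* at -0.052, *Hdac4* at -0.064, *Smarca2* at -0.083, *Smarca4* at -0.12, *Ehmt2* at -0.14, *Cbx7* at 0.013 and *Dot1l* at 0.044. With the deposited ratios *Dnmt3a* was at 0.0014 and *Dot1l* at 0.015, without the offset *Dnmt3a* was at 0.0080, and leaving out 1 array at a time *Bmi1* ranged from -0.0067 to 0.066, *Dot1l* from -0.026 to 0.019 and *Dnmt3a* from -0.088 to 0.083, turning without array 1. The causes were not tested. No called probe changed its direction in the settings that keep single probes. Kept outlier spots and the filter on dim probes changed no call.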
